A study of Saccharomyces cerevisiae with 3 samples.

Results

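This account covers 10 genes for structural proteins of the cell wall of the budding yeast Saccharomyces cerevisiae, outside the DAN/TIR mannoproteins named in the title of the study. They were taken by gene name, among 6270 genes on 6337 array rows, and each has 1 row: CWP1 and CWP2, the PIR genes PIR1, PIR3, HSP150 and CIS3, and 4 further genes, SED1, SPI1, CCW12 and CCW14. Messenger RNA was read on 3 NimbleGen arrays of 1 colour from BY4742, a haploid laboratory strain of the alpha mating type with deletions of auxotrophic marker genes, which all 3 conditions share. The control culture was grown at 24 °C under atmospheric pressure (0.1 MPa) and harvested at its growth density. For high pressure, cells spent 5 h at 25 MPa with the temperature kept at 24 °C. For low temperature, they spent 5 h at 15 °C with the pressure kept at 0.1 MPa. No incubation of 5 h is stated for the control, so time in culture and condition cannot be told apart in a comparison with it. RNA of 3 cultures was pooled for each condition. Each condition therefore has 1 array, no spread between cultures was measured, and no difference below could be tested.

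The yeast wall is a network of glucan and chitin with an outer layer of heavily mannosylated proteins. Most of these proteins are made with a glycosylphosphatidylinositol (GPI) anchor, part of which is later joined to wall glucan, and CWP1, CWP2, SED1, SPI1, CCW12 and CCW14 code for proteins of this kind. PIR proteins, named for their internal repeats, carry no GPI anchor and are attached to glucan by a bond that dilute alkali breaks. Wall protein genes are known to differ in when they are used, some at a set stage of the cell cycle and others in stationary phase or under stress.

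The 10 genes lie on 5 chromosomes, and 6 of them form 3 pairs of direct neighbours. CWP2 and CWP1 follow each other on chromosome XI, PIR1 and PIR3 are neighbours elsewhere on that chromosome, and HSP150 and CIS3 are neighbours on chromosome X. SED1 is on chromosome IV, SPI1 on chromosome V, and CCW12 and CCW14 are on chromosome XII. Their coding lengths in the RefSeq table of assembly R64 run from 279 bases for CWP2 to 1242 bases for HSP150. The 15 probes of 60 bases for a gene fill 900 bases end to end, more than the coding length of 6 of the 10 genes. Probes within those coding sequences would have to overlap, so that the probe pairs of a gene are not independent readings.

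Levels are the authors' RMA values on the log2 scale, and 3 values in a row are given in the order control, pressure, cold. The median level over all rows was 6.43, 6.77 and 6.98 in that order, a difference in scaling that enters every ratio below. The median log2 ratio over all genes was 0.13 for pressure against control and 0.26 for cold against control. With each array centred on its median level these became -0.21 and -0.29. Ratios are therefore also given from other values and scalings, 6 ways in all. A shift of a whole array leaves the difference between the ratios of 2 genes unchanged, so centred and uncentred values give the same difference. The ranges of such differences over the 6 ways therefore hold repeated values. The arrays give shares of labelled RNA, so that fewer cells using a gene and less of its RNA per cell cannot be told apart. The alpha-factor genes MF(ALPHA)1 and MF(ALPHA)2 and the a-factor receptor gene STE3 were above mismatch on all 3 arrays, as a strain of the alpha mating type has them. Of 5 a-cell genes, STE2 was above mismatch on 3 arrays and AGA2 on 2. Of the marker genes deleted in this strain, LEU2, LYS2 and URA3 were above mismatch on none, and HIS3, whose deletion is known to be partial, on all 3. The free-text descriptions of the samples name another strain and another growth temperature than their titles.

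All 10 genes had perfect-match signal above mismatch on every array, at a one-sided 5% level over 15 probe pairs (t above 1.76). Over all rows the share above mismatch was 54.2% in the control, 62.4% under pressure and 60.5% in the cold. PIR3 on the control array was closest to that limit, with t of 1.79, and SPI1 there had 2.72. The a-cell gene STE2 passed the limit on all 3 arrays of this alpha strain. Passing it therefore does not by itself settle that a gene is expressed, which bears most on PIR3 in the control. CCW12, for an abundant protein of growing wall, had the highest level of any row on each array, at 15.21, 15.12 and 15.05. CWP2, for an abundant small mannoprotein, followed with 15.01, 14.96 and 14.86. These levels describe signals, since probes of different genes differ in brightness, and do not rank the messenger RNAs. Whether the signal of this pair was compressed at the top of the scale was not tested. Among 28 other genes above 14 on the control array, the log2 ratio of high pressure to control ran from -0.68 to 0.38. Their median was -0.20, and -0.26 for low temperature against control. Both lie below 0, while the medians over all genes lie above it. The 28 genes were picked on the control array, the denominator of both ratios, and such a choice by itself can draw their ratios down. For pressure against cold, 27 other genes above 14 on the cold array had a median of -0.09, beside -0.12 over all genes. Whether bright genes differ from the median gene in these ratios was not tested.

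**Figure D1:**
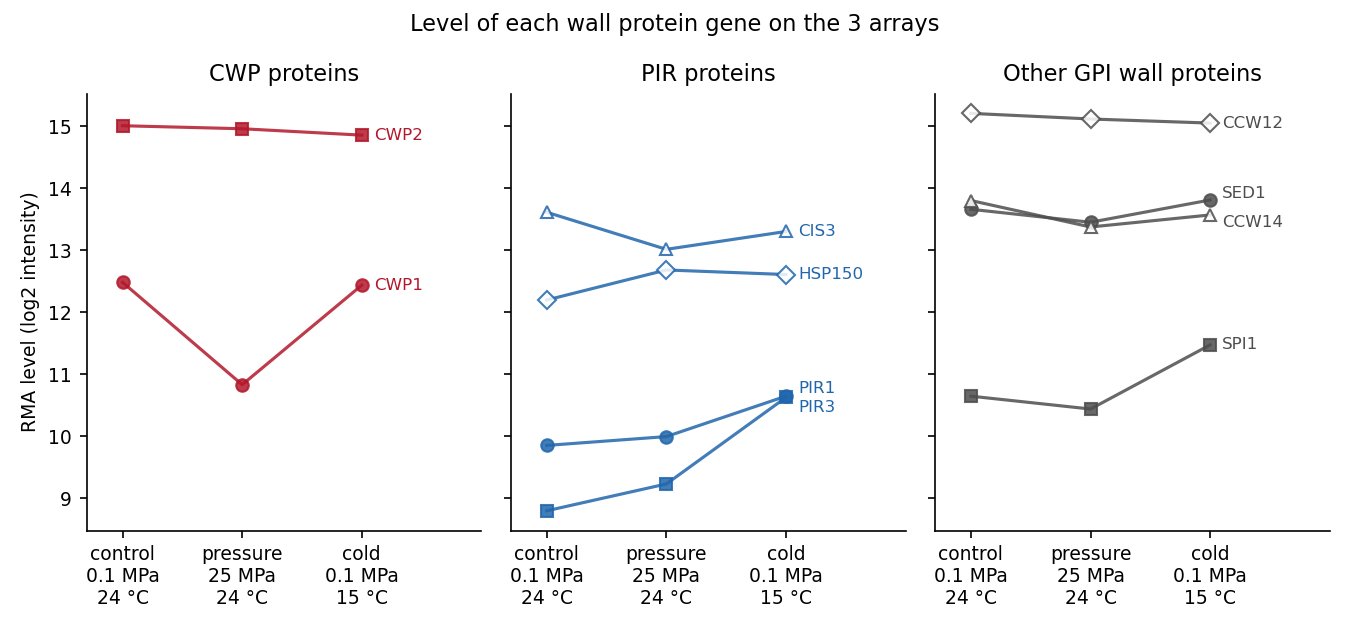
Level of each gene on the 3 arrays, as RMA log2 intensity on the vertical axis and the condition on the horizontal axis, 1 panel for each group of proteins and 1 point for each array, with no error because each condition has 1 array. CWP1 dips to 10.83 on the high-pressure array alone, PIR3, PIR1 and SPI1 are highest on the low-temperature array, and CWP2 and CCW12 lie nearly flat at the top. Levels of different genes cannot be compared.

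High pressure was set against the control first. CWP1, for a wall mannoprotein known from the birth scar, had the lowest ratio of the 10 genes. It had levels of 12.48, 10.83 and 12.44. The pressure level is the low one, and the other two are close. The log2 ratio was -1.65, that is 3.14-fold lower under pressure, and -1.78 relative to the median gene. Of the 4902 genes counted, 65 had a lower ratio. The perfect-match intensity, on the linear scale, was 4329 in the control and 2034 under pressure. The ratio from these intensities was -1.09 on the log2 scale, and CWP1 was lower past 1.5-fold in all 6 ways of computing the ratio, from -1.99 to -1.09.

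Its neighbour CWP2 had a log2 ratio of -0.05 under pressure, with levels that span 0.15 over all 3 arrays. The difference between the log2 ratios of CWP1 and CWP2 was -1.60. It ran from -1.81 to -1.24 over the 6 ways, of which the centred ones repeat their uncentred values. The -1.81 came from quantile normalization of gene values, where CWP2 had a ratio of 0 because its rank was the same on both arrays. The 2 CWP genes were thus unequal under pressure, by more than the other neighbour pairs.

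Of the PIR genes, CIS3 was the one on the lower side. CIS3, also named PIR4, had levels of 13.61, 13.02 and 13.30, highest in the control. Its ratio of -0.60 (1.51-fold lower) lies just past the limit of 1.5-fold, which is 0.58 on the log2 scale. It stayed inside that limit in 4 of the 6 ways, at -0.13 with perfect-match intensities. HSP150, also named PIR2, a secreted glycoprotein known for its induction by heat, had levels of 12.20, 12.68 and 12.61, lowest in the control. Its ratio of 0.48 was inside 1.5-fold and was above 0 in all 6 ways, from 0.15 to 0.83. PIR3 and PIR1 had ratios of 0.43 and 0.14 under pressure, inside 1.5-fold.

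The neighbours HSP150 and CIS3 thus lay on opposite sides of 0, with HSP150 above CIS3 by 1.08 in log2 ratio and by 0.90 to 1.08 over the 6 ways. The 4 PIR genes had a median ratio of 0.29, beside 0.13 for all 6270 genes.

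The other 4 wall genes were all slightly below 0 under pressure. CCW14, for a GPI protein of the inner wall layer, had the lowest ratio of them, -0.43, with levels of 13.80, 13.38 and 13.57. SED1, known as an abundant wall protein of stationary cells, and its relative SPI1 both had -0.21, and CCW12 had -0.09. Their median was -0.21. With perfect-match intensities the ratios of these 4 genes lay between -0.05 and 0.05, and between -0.28 and -0.18 once those intensities were centred, so the shared sign depends on the scaling.

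In all, 2 of the 10 genes were lower past 1.5-fold under pressure and 0 were higher. Over all genes counted, 12.2% were lower and 28.1% higher past the same size. With the arrays centred, 3 of the 10 genes were lower (CWP1, CIS3 and CCW14) and 0 higher, beside 25.0% lower and 17.1% higher over all genes. The median of the 10 genes was -0.15, beside 0.13 for all genes. It was -0.20 for the 28 other genes above 14 in the control, but of the 10 genes only CWP2 and CCW12 are that bright, so those 28 are not matched to the 10 in level. With perfect-match intensities 1 of the 10 was lower and 1 higher, the latter HSP150 at 0.79, beside 5.13% lower and 23.8% higher over all genes.

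A limited yardstick for these ratios comes from 64 genes with 2 rows on the arrays. The SD over genes of the difference in log2 ratio between the 2 rows was 0.53 under pressure, 0.45 in the cold and 0.44 for pressure against cold. Of these genes 36 are described as parts of Ty retrotransposons, and their median control level of 7.31 is below that of each of the 10 wall protein genes. The ratio of CWP1 is about 3 times that SD, and that of CIS3 is close to it. The yardstick holds no spread between cultures.

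**Figure D2:**
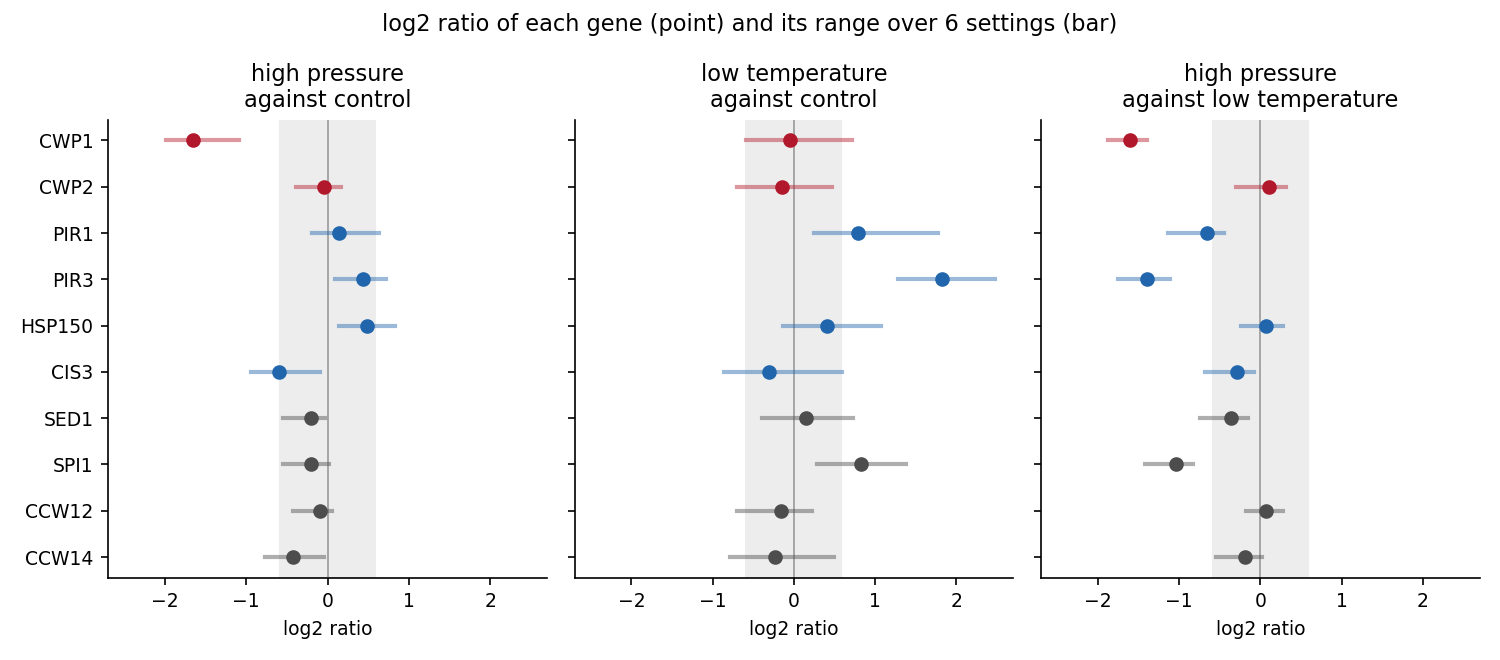
log2 ratio of each gene in the 3 comparisons, on the horizontal axis. Points are the RMA ratios, bars run from the lowest to the highest of 6 ways of computing them, and the grey band marks 1.5-fold. The bars of CWP1 under pressure, of PIR3 in the cold, and of CWP1, PIR3 and SPI1 between pressure and cold lie wholly outside the band, while the cold bars of most other genes cross 0.

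Low temperature against the same control gave another set of genes. PIR3 had log2 levels of 8.80 in the control, 9.23 under pressure and 10.63 in the cold, so that the cold level stands apart from the other two. Its ratio was 1.83 (3.55-fold higher) and 1.56 relative to the median gene, and 212 of 4877 genes counted had a higher one. The perfect-match intensity of PIR3 was 957, 1329 and 3519, and its mismatch intensity 482, 547 and 879, on the linear scale. PIR3 was higher past 1.5-fold in all 6 ways, from 1.28 with the arrays centred on their medians to 2.47 with perfect-match minus mismatch differences.

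PIR1, for a PIR protein known from bud scars, had levels of 9.86, 10.00 and 10.65, and the cold level is again the high one. Its ratio was 0.79 (1.73-fold higher). It was past 1.5-fold in 5 of 6 ways and 0.25 with the arrays centred. The ratio of PIR3 exceeded that of its neighbour PIR1 by 1.03, but by 0.31 with perfect-match intensities. HSP150 had 0.41 in the cold, inside 1.5-fold, and ran from -0.14 with the arrays centred to 1.07 with the differences. It was past 1.5-fold in 2 of the 6 ways. CIS3 had -0.31, with 0.54 from perfect-match intensities, so its direction in the cold rests on the values used. The difference between PIR3 and CIS3 was 2.14 in log2 ratio and ran from 1.34 to 2.14 over the 6 ways, and that between PIR1 and CIS3 was 1.10, from 1.03 to 1.18.

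SPI1, known for its induction in stationary phase and by weak acids, had levels of 10.65 in the control, 10.44 under pressure and 11.48 in the cold. The cold array is the high one. The ratio was 0.83 (1.77-fold higher), past 1.5-fold in 5 of 6 ways and 0.28 with the arrays centred. SED1 had levels of 13.66, 13.45 and 13.81, and its cold ratio of 0.15 ran from -0.40 with the arrays centred to 0.72 with the differences. It was past 1.5-fold in 2 of the 6 ways and above 0 in 5. The ratio of SPI1 exceeded that of SED1 by 0.68, and by 0.65 to 0.68 over the 6 ways.

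CWP1 had a ratio of -0.05 in the cold, but 0.69 from perfect-match intensities, and -0.59 after centring, and so no settled direction. CWP2 had -0.15, CCW12 -0.16 and CCW14 -0.23, with 0.43, 0.23 and 0.49 from perfect-match intensities. For these genes too the sign rests on the scaling.

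Past 1.5-fold, 3 of the 10 genes were higher in the cold (PIR3, SPI1 and PIR1) and 0 lower, beside 34.8% higher and 9.6% lower among all genes counted. The share of higher genes among the 10 is near that background. With the arrays centred the background was 14.6% higher and 30.4% lower. Of the 10 genes, 1 was then higher (PIR3) and 5 were lower past 1.5-fold. The median ratio was 0.60 for the 4 PIR genes, -0.10 for the 2 CWP genes and -0.003 for the other 4, beside 0.26 for all genes.

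High pressure was then set against low temperature, which leaves the control out. Both arrays here are of cells held for 5 h, so the missing incubation of the control does not enter. CWP1 had a log2 ratio of -1.60 (3.04-fold lower under pressure than in the cold), and 24 of 4799 genes counted had a lower ratio. PIR3 had -1.40 (2.63-fold lower), with 35 genes below it, and SPI1 had -1.03 (2.05-fold lower), with 93 genes below it. These 3 genes were past 1.5-fold in all 6 ways, with ranges of -1.87 to -1.39 for CWP1, -1.76 to -1.11 for PIR3 and -1.42 to -0.82 for SPI1. PIR1 had -0.65 (1.57-fold lower) and was past the limit in 5 of 6 ways, with -0.44 when the arrays were centred.

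The other 6 genes were inside 1.5-fold between pressure and cold. SED1 had -0.36, CIS3 -0.29 and CCW14 -0.19, while CWP2 had 0.10 and HSP150 and CCW12 had 0.07. SED1 and CIS3 were past the limit with perfect-match intensities, at -0.75 and -0.66. In all, 4 of the 10 genes were lower under pressure and 0 higher, beside 10.1% lower and 4.27% higher over all genes. With the arrays centred, 3 were lower and 0 higher, beside 4.36% and 8.83%. With perfect-match intensities 6 were lower, beside 16.9%, and with perfect-match minus mismatch differences 6, beside 1534 of 4383 genes. The median was -0.32 for the 10 genes and -0.12 for all genes. The 2-fold limit left 3 of the 4 genes, without PIR1.

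In this comparison the spread inside each group was larger than the differences between the group medians, which were -0.75 for CWP, -0.47 for PIR and -0.28 for the other 4 genes. CWP1 and CWP2 differed by -1.71 in log2 ratio, from -1.71 to -1.50 over the 6 ways. PIR3 and HSP150 differed by -1.47, from -1.62 to -1.17. SPI1 and SED1 differed by -0.67, from -0.84 to -0.59. The span from the lowest to the highest ratio was 1.71 for the CWP genes, 1.47 for the PIR genes and 1.10 for the other 4.

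**Figure D3:**
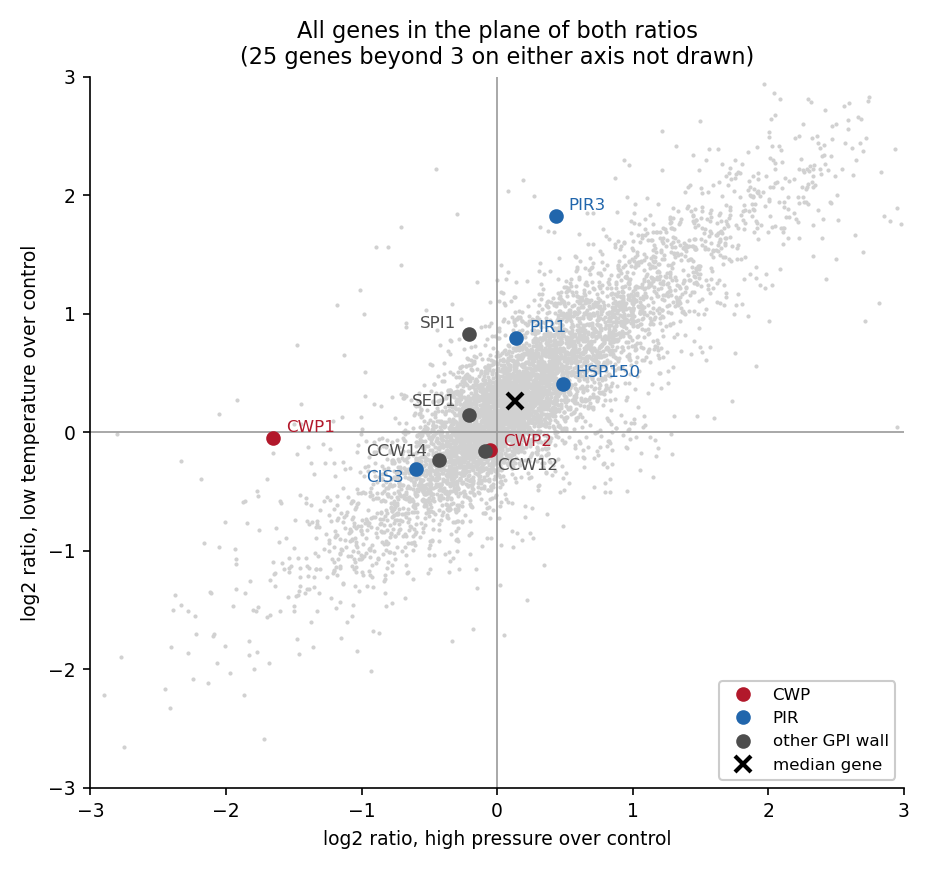
All genes (grey) by log2 ratio of high pressure over control (horizontal) and of low temperature over control (vertical), with the 10 wall protein genes in colour and the median gene as a cross. Both ratios share the control array, which by itself draws points along the diagonal. CWP1 at -1.65 and -0.05, PIR3 at 0.43 and 1.83, and SPI1 at -0.21 and 0.83 lie away from that diagonal.

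CWP1 was also the gene of the 10 farthest from the median gene in the plane of these 2 ratios, at a distance of 1.81, followed by PIR3 at 1.59. Among 2887 other genes above mismatch on all 3 arrays, those nearest to CWP1 were MIX17, RAS1 and TSC10, at distances of 0.19, 0.24 and 0.35. MIX17 had ratios of -1.50 and 0.07, RAS1 -1.44 and 0.07, and TSC10 -1.37 and -0.26. This likeness is read over 3 arrays only and carries no more than these values.

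Further genes of the wall were counted from lists named by what is known of them. Their counts past 1.5-fold stand beside the same shares of all genes as above, 28.1% higher and 12.2% lower under pressure, and 34.8% and 9.6% in the cold. Of 26 other genes for GPI proteins, 3 lay past 1.5-fold on the higher side and 4 on the lower side under pressure, with a median of 0.05, and 5 higher and 5 lower in the cold, with a median of -0.11 that became 0.57 with perfect-match intensities. Of the 26, 16 under pressure and 18 in the cold were above mismatch on an array of the comparison. Among these were 2 of the higher and 3 of the lower genes under pressure, and 3 and 5 in the cold. HPF1, for a large mannoprotein, was higher by 1.35 under pressure (2.54-fold) and by 1.77 in the cold (3.42-fold). GAS1, for a glucan-elongating enzyme of the cell surface, had -1.32 under pressure (2.50-fold lower). SAG1, for the alpha-agglutinin of mating, had -1.71 in the cold (3.27-fold lower). Its level was 11.95 in the control and 10.24 in the cold. Perfect-match intensities gave smaller ratios, -0.72 for GAS1 under pressure and -0.59 for SAG1 in the cold.

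Among 14 genes for soluble or glucan-bound wall proteins, 3 were higher and 4 lower under pressure, and 0 higher and 3 lower in the cold. The list's medians of -0.03 and -0.35 became 0.26 and 0.33 with perfect-match intensities. NCA3, of the SUN family, had -2.41 under pressure (5.30-fold lower) and -1.81 in the cold (3.52-fold lower). UTH1, of the same family, had -1.31 in the cold (2.49-fold lower), and SCW10, for a glucanase-like protein, had -0.99 under pressure (1.99-fold lower). Perfect-match intensities gave -0.32 and -0.43 for this pair, inside 1.5-fold. PIR5, the PIR gene next to HSP150, was above mismatch under pressure alone, with dim levels of 4.44, 5.21 and 5.30.

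PIR1, PIR3 and CIS3 are known among genes used at the end of mitosis and in early G1. Of 14 other genes of that stage, 5 were higher and 0 lower past 1.5-fold in each comparison with the control, with medians of 0.49 under pressure and 0.40 in the cold. The share of higher genes is near that over all genes. EGT2, DSE2, CTS1 and SCW11 of this list stand in the lists above too. DSE1, of daughter cells, had 1.63 under pressure (3.10-fold higher) and 1.53 in the cold (2.88-fold higher). RME1, for a repressor of meiosis, had 1.40 (2.64-fold higher) and 1.89 (3.71-fold higher). The part of cell cycle stage in the PIR values was not tested.

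Of 17 genes for regulators of wall genes, 3 were higher and 1 lower under pressure, and 4 higher and 0 lower in the cold, with medians of 0.12 and 0.50. Of those higher, 1 under pressure and 3 in the cold were above mismatch on an array of the comparison. In each comparison 9 of the 17 were above mismatch on at least 1 array. SLT2, the kinase of the wall integrity pathway, was higher by 1.18 under pressure (2.27-fold) and by 1.03 in the cold (2.04-fold), at dim levels of 6.14, 7.32 and 7.17. HAA1, for a factor of the weak-acid response, was higher in the cold by 1.36 (at least 2.56-fold, since its control level was not above mismatch).

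The DAN/TIR mannoproteins, known from walls of cells short of oxygen or in the cold, had other values on the same arrays. Of 9 DAN/TIR genes, 6 were higher past 1.5-fold and 0 lower in each comparison with the control. In each, 5 of those 6 were above mismatch on an array of the comparison. The median ratio of the 9 was 2.41 under pressure, beside -0.15 for the 10 genes here, and 0.94 in the cold, beside 0.05. With perfect-match intensities the medians were 2.03 beside 0.04 under pressure, and 1.15 beside 0.70 in the cold, where the 2 sets lay closer. The difference has no test.

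**Figure D4:**
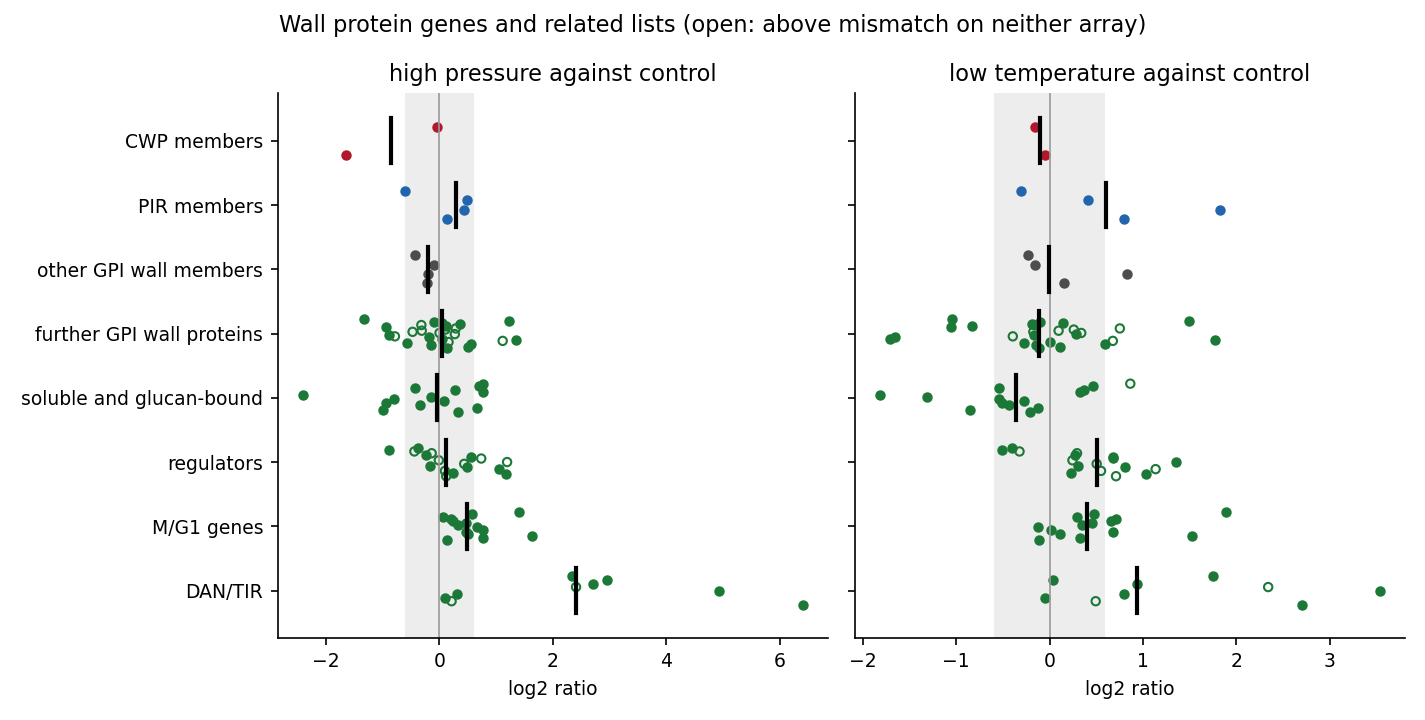
log2 ratios of the 3 groups of wall protein genes (red, blue and dark grey) and of the further lists (green), under pressure on the left and in the cold on the right, 1 point for each gene and a black line at the median. Open points were above mismatch on neither array, the grey band marks 1.5-fold, and the horizontal scales of the panels differ. Most points of the wall protein groups lie in or near the band, CWP1 and PIR3 being the exceptions, while the DAN/TIR median is 2.41 under pressure.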

How the data were processed

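The deposited log2 levels are the main values. Per the labels the authors used quantile normalization and the robust multiarray average (RMA) to make them; its version, background step and genome build are not given in the sources used here. The column medians differ, so whether the 3 arrays were normalized together is unknown. The deposited tables per array hold mean perfect-match and mismatch intensity on a linear scale, the mean difference of 15 probe pairs and, as a ratio, its coefficient of variation, per the file headers.

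Row names were matched to the RefSeq table (R64) by locus tag, symbol or synonym on the same chromosome (1723, 3950 and 150 rows; 514 kept the file's name). Rows of 65 genes were averaged. A log2 ratio is the difference of 2 levels. The limit of 1.5-fold is that of the series' design text, and a gene entered the counts where the brighter of its levels reached its array's 25th percentile. "Above mismatch" means a t above 1.76 from the deposited difference and its coefficient of variation (14 degrees of freedom).

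The 6 ways of computing a ratio are RMA, perfect-match intensities, perfect-match minus mismatch differences, RMA centred on array medians, RMA with quantile normalization of gene values and, added after seeing the data, perfect-match intensities centred on array medians. The last was added because those intensities are not scaled between arrays. Taking the first row of a gene in place of the mean leaves the 10 genes as they are, since each has 1 row, and is not counted among the 6. The genes, lists and groups were chosen with earlier results of these data known. Named were all 10 genes and, from each list, up to 2 genes with the largest ratio in size above mismatch on either array of a comparison; PIR5 was added as a neighbour after its values were seen. The result of 1 gene that this rule names is not reported here. Sequence features in the plan were not analysed here. The counting was tested on simulated data. Python 3.11.15, NumPy 2.4.6, pandas 2.3.3 and SciPy 1.17.1 were used. The number of arrays limits the precision.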

Additional observations from a re-analysis of the deposited data

How the results depend on the processing

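No paired analysis was possible because each condition has 1 array. A value is taken as moved when it differs from the RMA value by more than the SD between rows of a gene, or by over 1.5 times for a count. Leaving out replicates was not possible for the same reason. Of 50 recomputed ratios of the 10 genes in each comparison, 49 stayed within that SD for pressure against control. The number was 49 for pressure against cold and 22 for cold against control. Of the ratios past 1.5-fold with RMA, 0 changed sign. Other ratios did so in the cold. CWP1 was higher past 1.5-fold with perfect-match intensities (0.69) and lower past it with the arrays centred (-0.59). CIS3 was just past it with the differences (0.59) and lower past it with the arrays centred (-0.86). Centring shifts all 10 genes of a comparison by the same amount, so under it they stay or move together. The ratio of CCW12 went from -0.16 to -0.71 in the cold, a shift larger than the SD of 0.45. It went from -0.09 to -0.43 under pressure and from 0.07 to 0.28 for pressure against cold. These shifts are smaller than the SDs of 0.53 and 0.44. For centring, the counts thus reflect array scaling and do not show how stable single genes are. In the cold, the medians of the CWP, PIR and other wall genes were 0.56, 1.30 and 0.60 with perfect-match intensities, 0.59, 1.42 and 0.61 with perfect-match minus mismatch differences, and -0.65, 0.054 and -0.55 with the arrays centred. The number higher in the cold was 6, 7 and 1 under these settings and 1 past 2-fold, and the number lower was 5 with the arrays centred. Over all genes counted, 45.9%, 64.3% and 14.6% were higher in the cold under these settings, and 30.4% were lower with the arrays centred. The share of all genes past 2-fold is not given here. Under pressure, 1 and 3 genes were higher with perfect-match intensities and with the differences, beside 23.8% and 46.5% of all genes counted. The number lower was 1 with either, with quantile normalization of gene values, with perfect-match intensities centred, and past 2-fold, since CIS3 then lay inside the limit. The cause was not tested. Over all genes, the cold split of 1695 higher and 468 lower became 721 and 1497 with the arrays centred, 2259 and 113 with perfect-match intensities, 2794 and 299 with the differences, and 991 and 969 with quantile normalization. The pressure split of 1376 and 599 became 840 and 1231, 1191 and 257, 2053 and 550, and 1003 and 918 in that order. Pressure against cold went from 205 higher and 486 lower to 426 and 210, 84 and 818, 234 and 1534, and 278 and 286.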
